A study of Mus musculus with 4 samples.

Results

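The promoters of the ribosomal protein genes were examined as a benchmark of chromatin that a cell can be assumed to keep open. The members were the protein-coding genes of the mouse GENCODE annotation (GRCm38) whose symbol starts with Rpl or Rps and a digit, together with Rplp0, Rplp1, Rplp2 and Rpsa. S6 kinase genes and symbols marked -ps were left out. This gave 86 members of 21938 protein-coding genes, 52 named for the large (60S) subunit and 34 for the small (40S) subunit, spread over 19 chromosomes. For each gene, the peak with the highest −log10 p within 1 kb of any annotated transcription start site (TSS) was taken in each library and is called its promoter peak here. No measured value was used to choose the genes.

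The libraries come from Foxp3+ CD4+ regulatory T (Treg) cells of lymph nodes (LNs) of naïve, unstimulated C57BL/6 female mice of 6 to 8 weeks. The WT and Il2ra mut/mut groups each consisted of 2 mice, with 1 library of 50000 cells per mouse. All mice carried the Foxp3 RFP reporter, by which Treg cells were sorted after negative selection on beads. Il2ra encodes CD25, the high-affinity chain of the IL-2 receptor. The mutant allele carries a point mutation that lowers surface CD25. It is not restricted to Treg cells, so that the other cells of the donor carry it too, and peak lists do not show the mutation itself. In a bulk library, an open promoter in fewer cells and a less open promoter in every cell cannot be told apart. Chromatin was assayed by ATAC-seq, in which a transposase cuts accessible DNA, so that piled-up reads mark open chromatin regions (OCRs). The lists held between 112569 and 142732 peaks per library, the authors called them in each library on its own, and the total number of reads is not in them. The fold enrichment of a peak is its read pile-up at the summit plus 1, divided by the background of the library plus 1. The background worked out from the lists was 0.974 to 1.23 reads. In 100% of the peaks the fold enrichment corresponded to a whole number of reads, to within 0.02 of a read. The median peak had 8 to 10 reads at its summit and the median member promoter had between 50 and 65 in every library, so that member values rest on more reads than those of most peaks. Counting error alone remains sizeable at that depth.

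Of the Treg cell markers examined, all 7 had a promoter peak in every library, Foxp3 and Cd4 among them. Of 15 markers of other cell types, 11 had no promoter peak in any library, among them the B cell genes Ms4a1 and Cd79a, and 3 (Cd8b1, Pecam1 and Col1a1) had one in all 4. Epcam had one in 3 libraries. Cd8b1 and Pecam1 had lower centred values in both mutant libraries than in both WT libraries without passing the test. The Treg cell marker Cd4 was lower in the mutant as well, with fold enrichments of 8.11 and 10.1 in WT against 6.28 and 5.35. Its difference of -0.64 on the log2 scale did not pass the test either, while Foxp3 differed by 0.05. The part of other cells in the results was not tested.

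Ribosomal proteins are made in near-equal amounts and assemble with ribosomal RNA into the particles that translate every mRNA. Their genes are short, active in all dividing cells and mostly driven from CpG-rich promoters, often without a canonical TATA box. Their mRNAs typically start with a C followed by a run of pyrimidines, the 5′ terminal oligopyrimidine (TOP) motif, through which mTOR signalling controls their translation. IL-2 is one of the signals that feed the mTOR pathway in Treg cells. Many ribosomal protein genes also carry small nucleolar RNAs (snoRNAs), guides for ribosomal RNA modification, in their introns.

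The TOP motif is shown first, because it is defined by its place at the start of the mRNA. The members were matched by symbol to the RefSeq promoter table (GRCm38.p6), which gives 250 bases before and 50 bases after each start. A total of 66 of 86 members matched, with 78 promoters between them. The 6 promoters below are those that hold a TOP at the listed start and have the highest-ranked peaks. Each line runs from 15 bases before the start to 15 bases from it, 5′ to 3′ on the strand of the gene, with the pyrimidine run in capitals.

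Rpl15 (chr14:18270972-18271001, minus strand): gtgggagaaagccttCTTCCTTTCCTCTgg
Rps21 (chr2:180257364-180257393, plus strand): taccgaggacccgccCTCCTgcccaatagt
Rpl28 (chr7:4792950-4792979, plus strand): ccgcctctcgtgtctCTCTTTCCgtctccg
Rps6 (chr4:86857353-86857382, minus strand): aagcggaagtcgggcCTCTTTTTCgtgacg
Rps27 (chr3:90213634-90213663, minus strand): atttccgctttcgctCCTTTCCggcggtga
Rpl14 (chr9:120571502-120571531, plus strand): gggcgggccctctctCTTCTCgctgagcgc

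The run of Rpl15 was 13 bases long and that of Rps21 was 5 bases long, the shortest that the search accepts (a C and 4 pyrimidines). All 6 genes had a promoter peak in every library.

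A retrotransposed copy of Rps27, Rps27rt, is itself a member and is shown in the same frame (chr9:114982725-114982754, minus strand), because its transcribed start copies that of Rps27.

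Rps27rt: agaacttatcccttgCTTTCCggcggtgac

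Between Rps27 and Rps27rt, the longest shared run of bases was 38 in the 50 bases after the start and 10 in the 250 bases before it. The promoter in the table held 22 CpG dinucleotides in Rps27 and 9 in Rps27rt. The other copies in the table showed a smaller loss or none, with 17 in Rpl10 and 13 in Rpl10l, and 17 in both Rpl39 and Rpl39l. The peaks of Rps27 stood at a mean percentile of 97.2 among all peaks, and Rps27rt had no called peak in any library.

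In all, 14 of the 78 member promoters (17.9%) held a TOP at the listed start, against 2.28% of the 11448 promoters of genes with a promoter peak in every library and 2.21% of all 21262 promoters. When the C was sought within 5 bases of the listed start, a search added after the data were seen, the shares were 41.0%, 19.5% and 18.6%. Because the matched genes were 76.7% of the members and under 80%, a check over the whole list is void, and these shares describe the matched genes only.

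The same table was searched on both strands for 9 motifs given as fixed words. CCGGAA, the core bound by ETS factors, was found in 47.4% of member promoters, 28.7% of promoters of genes with a peak in every library and 18.7% of all promoters. The palindrome TCGCGA was found in 19.2%, 5.21% and 3.32%, and AAGATGG (YY1) in 15.4%, 7.21% and 6.24%. GCGCATG (NRF1) was found in 11.5%, 7.15% and 4.8%, and TGACGTC (CRE) in 8.97%, 5.58% and 3.84%. For these 2 words the member intervals, 6.19% to 20.5% and 4.42% to 17.4%, hold the share of the genes with a peak. They do not hold the share of all promoters. Little separated the members from the genes with a peak for the E-box CACGTG (10.3% and 10.1%) and for GGGCGG (SP1 and KLF factors, 60.3% and 63.8%). TATAAA was in 8.97% of member promoters against 6.51% and 12.6%, and CCAAT (NFY) in 29.5% against 38.1% and 38.2%. The member intervals, 4.42% to 17.4% for TATAAA and 20.5% to 40.4% for CCAAT, hold the shares of both other groups. In the 250 bases before the start alone, the members and the genes with a peak held NRF1 in 6.41% and 5.96%, YY1 in 6.41% and 4.26% and TATAAA in 5.13% and 5.90%, so that the order of the last turned. The median GC content was 58.2% in the members, 61.0% in the genes with a peak and 56.3% in all promoters, and the median promoter held 21, 21 and 13 CpG dinucleotides. Adjacent matches can share end bases, as CCGGAA and AAGATGG share AA, and such overlaps were not removed. The shares and intervals count each promoter of a gene separately. Promoters of the same gene can overlap, as those of Rpl35a with AAGATGG and of Rps19 with TCGCGA do, so that 1 site can count more than once. A match describes the sequence and is not evidence of a bound factor.

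**Figure D1:**
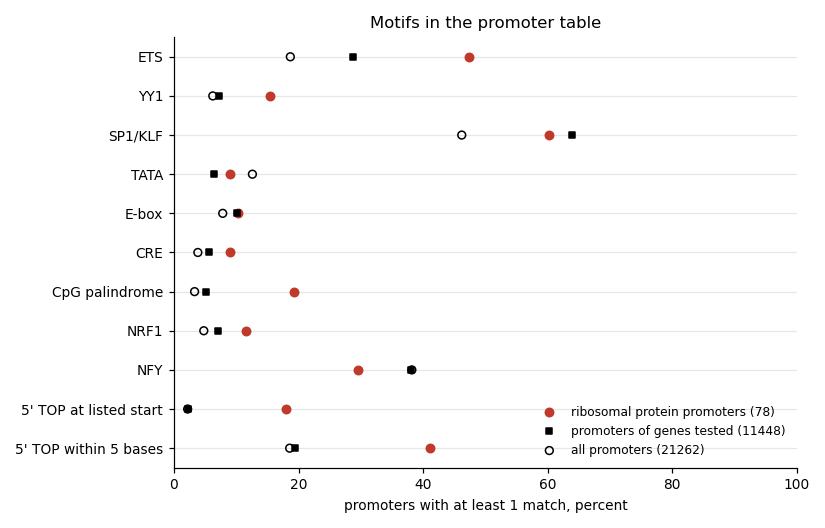
Share of promoters (percent, horizontal axis) with at least 1 match to each of 9 motifs and the 5′ TOP, in the 78 ribosomal protein promoters (red), the 11448 promoters of genes with a peak in all libraries (black squares) and all 21262 promoters (open circles). The members lie far to the right of both other groups for ETS (47.4%), the CpG palindrome (19.2%) and the 5′ TOP at the listed start (17.9%), and to the left of both for NFY (29.5%).

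For CCGGAA, the match closest to a listed start is shown in capitals (either strand). The 3 members are those with the highest-ranked peaks among the matched members that hold it. Rpl13a, the highest-ranked member, holds no match.

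Rpl27 (chr11:101442213-101442242, plus strand): cacacgccggaaCCGGAAcgctctgttcct
Rpl37 (chr15:5116578-5116607, plus strand): caccaagacccgCCGGAAgtagtttcctgg
Rpl18 (chr7:45718011-45718040, plus strand): cagagacgccagTTCCGGatagagtgtccc

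In these the match began 20, 23 and 48 bases before the start. The site of Rpl27 directly follows a second copy, and the site of Rpl18 lies on the opposite strand. The listed start of Rpl18 lies downstream of its promoter peak in every library, so this window is outside the peak. For TCGCGA, which reads the same on both strands, the corresponding 3 members are shown.

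Rpl27a (chr7:109519162-109519191, plus strand): gcgcctgctaccTCGCGAgacttcgtgagc
Rps3a1 (chr3:86142677-86142706, minus strand): cgccagctagtgTCGCGAgattcttaaagc
Rps19 (chr7:24884574-24884603, plus strand): cactccgaaatcTCGCGAgactcgacgccc

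The match began 21, 26 and 6 bases before the start.

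Nearly every ribosomal protein gene had an open promoter in Treg cells of both genotypes. A promoter peak was called for 83 of 86 members (96.5%) in replicate 1 of each genotype and for 82 (95.3%) in replicate 2 of each. The share over all protein-coding genes was 56.3% to 58.9%. In all 4 libraries, 82 members (95.3%) had a promoter peak, against 11417 genes (52.0%). The mean number of members with a peak was 82.5 in both genotypes, and the exact permutation test over the libraries gave p = 1 (two-sided, with 0.333 the smallest p that this design allows).

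The 4 members without a peak in every library were all paralogs or copies of another ribosomal protein gene. Rpl3l, the muscle counterpart of Rpl3, Rpl10l, a testis-expressed copy of Rpl10, and Rps27rt had none in any library. Rpl39l, a copy of Rpl39 that is best known from testis, had a weak peak in WT replicate 1 (fold enrichment 4.05, 7 reads) and in Il2ra mut/mut replicate 1 (fold enrichment 4.49, 9 reads) and none in the other libraries. These peaks stood at percentiles of 26.6 and 39.1 of their libraries, with summits at positions -903 and -173 bp relative to the TSS. The 77 members that were not in the list of paralogs and partners all had a peak in every library, as did 5 of the 9 listed. Those were Rpl7l1, Rpl22l1, Rpl36al, Rps27l and Rps19bp1, a partner of Rps19 that is not itself a ribosomal protein.

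OCRs reproducible in both libraries of a genotype were called at an irreproducible discovery rate (IDR) of 0.05, the study's threshold, and were common when those of the genotypes overlapped by at least 1 bp. All 82 members had a common OCR within 1 kb of a TSS, and none had only a WT-unique or Il2ra mut/mut-unique OCR. Over all genes with an OCR at the promoter, 6.22% had unique OCRs only and 9.07% had at least 1 unique OCR. Few members had weak peaks, and these shares do not compare genes of like level. Among the members, Rps14 had an additional unique OCR within 1 kb beside its common one. The remaining 4 members, the ones without consistent peaks, had no OCR.

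The rank of the member promoters was high without being extreme. The median member peak stood at a percentile of 95.8 to 96.4 among all peaks of a library, lowest in WT replicate 2 and highest in Il2ra mut/mut replicate 2, against 93.0 to 94.0 for promoter peaks of all genes. Between 86.6% and 92.7% of the 82 members lay in the top 10% of peaks of a library, against 68.9% to 77.0% of the 11417 genes. Between 25.6% and 28.0% of members lay below the median promoter peak, against 41.2% to 44.1% of genes. In the top 10% of promoter peaks the members were not over-represented, with 9.76% to 13.4% of members against 11.5% to 12.1% of genes.

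**Figure D2:**
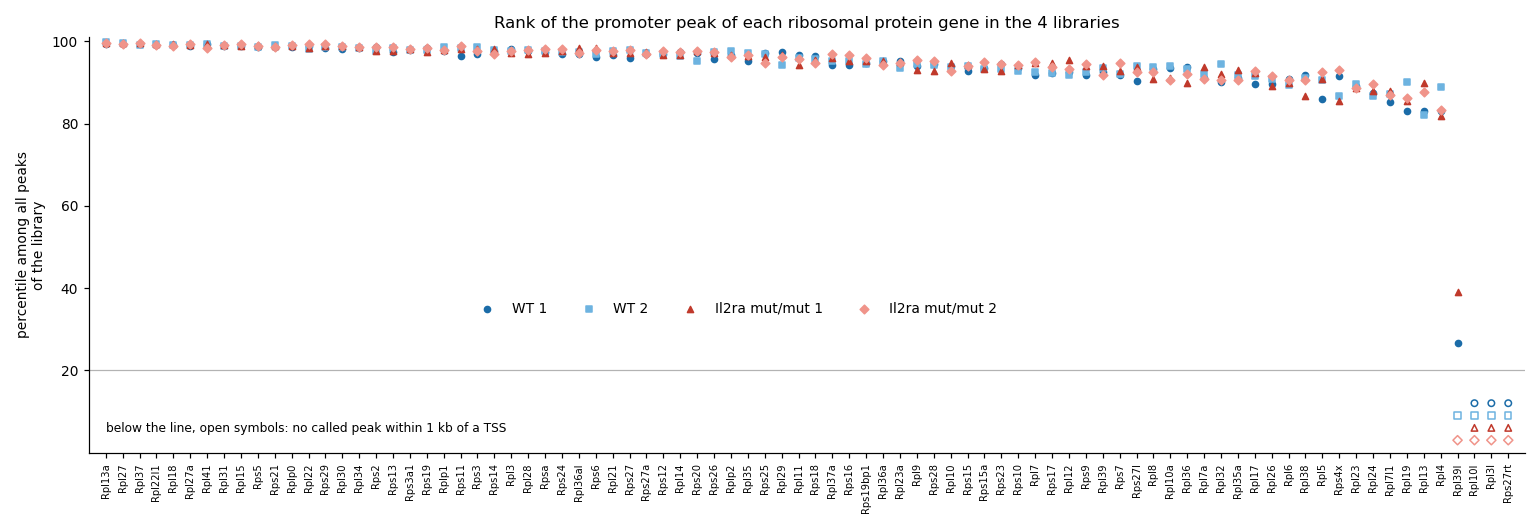
Percentile of the promoter peak of each of 84 ribosomal protein genes among all peaks of the library (vertical axis, percent of peaks below it, with ties at their mid rank), with 1 symbol per library and genes ordered by mean percentile. The symbols of a gene lie close together and mostly above 80; Rpl39l has peaks at 26.6 and 39.1 in 2 libraries only, and Rpl10l, Rpl3l and Rps27rt have none.

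At the top of the range was Rpl13a, a 60S protein that also takes part in silencing inflammatory mRNAs. Its fold enrichment was 59.8 and 106 in the WT libraries (replicates 1 and 2, the order used throughout) against 78.9 and 72.9 in the mutant libraries, at a mean percentile of 99.6. Among the next in order were Rpl27, Rpl37, Rpl22l1, Rpl18, Rpl27a, Rpl41, Rpl31 and Rpl15, with mean percentiles from 99.5 down to 99.01. All of these encode 60S proteins, and their 4 libraries kept them within the top 2% of peaks.

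Lowest among the members with a peak in every library was Rpl4, whose protein lines the exit tunnel of the ribosome. Its fold enrichments were 8.11 and 15.2 in WT against 7.63 and 7.29 in Il2ra mut/mut, at a mean percentile of 84.3. It was also the only member whose 4 promoter peaks did not share a base. In WT replicate 2 the summit lay at 127 bp, after the TSS, and in the other libraries at -429, -452 and -439 bp, on the side of the divergently transcribed Zwilch. Also low were Rpl13 (85.7), Rpl19 (86.3), Rpl7l1 (86.8), Rpl24 (87.9), Rpl23 (89.0), Rps4x (89.2), Rpl5 (89.9) and Rpl38 (90.1). The ranges of percentiles over the libraries overlapped between each of these low genes and the next, and likewise at the top, so that the order is a description.

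The groups of members with a distinct role lay within this range. Rplp0, Rplp1 and Rplp2 form the stalk that recruits translation factors, and had mean percentiles of 98.8, 98.0 and 96.8. Rpsa, also known as the laminin receptor precursor, stood at 97.6. Rps27a, which encodes a fusion of ubiquitin and a 40S protein, stood at 97.2. Rpl5 and Rpl11, which bind 5S ribosomal RNA and can restrain Mdm2 when ribosome assembly fails, stood at 89.9 and 95.6. The X-linked Rpl10, Rpl36a, Rpl39 and Rps4x stood at 93.8, 95.005, 92.9 and 89.2.

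Peaks were placed close to the TSS. The summit was within 100 bp of a TSS in 73.2% to 79.3% of the 82 members, against 56.9% to 59.8% of the 11417 genes, and the median summit lay at -17 to -27 bp relative to the TSS, depending on the library. For 81 of 82 members the chosen peaks of all libraries shared at least 1 bp (98.8%, against 93.8% of genes), and the median range of the summit over the libraries was 69.5 bp.

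**Figure D3:**
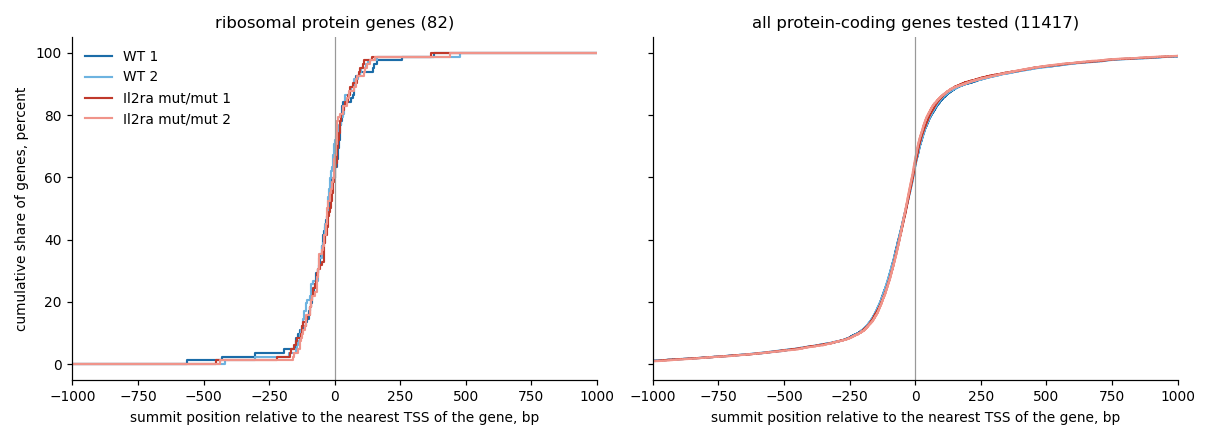
Cumulative share of genes (percent) against the position of the promoter peak summit relative to the nearest TSS of the gene (bp, negative before the TSS), with 1 line per library, for 82 ribosomal protein genes (left) and 11417 genes (right). The member lines rise more steeply around 0 and the 4 libraries run together; 73.2% to 79.3% of member summits lie within 100 bp.

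Other features of the genes set them apart from the rest of the genome. A snoRNA lay within 30 of 86 members (34.9%), 58 snoRNAs in all, against 1.18% of protein-coding genes. Rpl4 held 5 and Rpl13a held 4, so that members with many snoRNAs were found at both ends of the rank order. The median member was 3330 bp long, against 17400 bp. Another protein-coding TSS lay within 1 kb of a member TSS for 15 members, on the opposite strand for 14. In these, such as Rpl18 with Sphk2, Rpl15 with Nkiras1 and Rpl7a with Med22, a peak cannot be assigned to one gene. Their median percentile was 95.6, and that of the other members was 96.4.

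The comparison of genotypes asks whether reduced CD25 goes with altered openness of these promoters. No member passed the threshold. The log2 fold enrichment of the promoter peak, centred on the median of each library over all genes tested, was compared by limma over 11417 genes with a promoter peak in every library, including 82 members. Of all genes, 63 were called at an adjusted p of at most 0.05 (0.552%), 12 higher (0.105%) and 51 lower (0.447%) in Il2ra mut/mut, a count that fell to 2 without centring and to 20 without WT replicate 1. None of the members was called, and the lowest adjusted p of a member was 0.146. At an unadjusted p under 0.05 there were 7 members (8.54%), 1 higher and 6 lower, against 10.5% of all genes. A share of 0.552% corresponds to less than 1 gene among the members, so the count of 0 does not set them apart from the other genes.

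The median difference of the members, Il2ra mut/mut minus WT, was -0.03 on the log2 scale, beside -0.01 over all genes tested, and turned to 0.03 without Il2ra mut/mut replicate 2. Higher values in the mutant were found for 32 members and lower values for 50, or for 45 and 37 without that library. Libraries of the genotypes did not overlap for 14 members that were higher in the mutant (17.1%, beside 18.8% of all genes) and 16 that were lower (19.5%, beside 21.2%). The 95% confidence interval lay within a 2-fold change in either direction for 78 of 82 members (95.1%, against 93.9% of genes), and the median half-width of the interval was 0.36. Few members were weak, so these shares do not compare genes of like level. In groups of 2854 or 2855 genes by mean level, lowest to highest, 6, 27, 21 and 28 were members. The interval lay within 2-fold for 83.3%, 88.9%, 100% and 100% of them, against 81.9%, 95.4%, 98.8% and 99.5% of genes. Their median absolute difference was 0.335, 0.18, 0.085 and 0.125, against 0.209, 0.185, 0.144 and 0.114. The members were not more stable at every level. The test therefore bounds most members to less than 2-fold and leaves smaller differences unresolved.

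**Figure D4:**
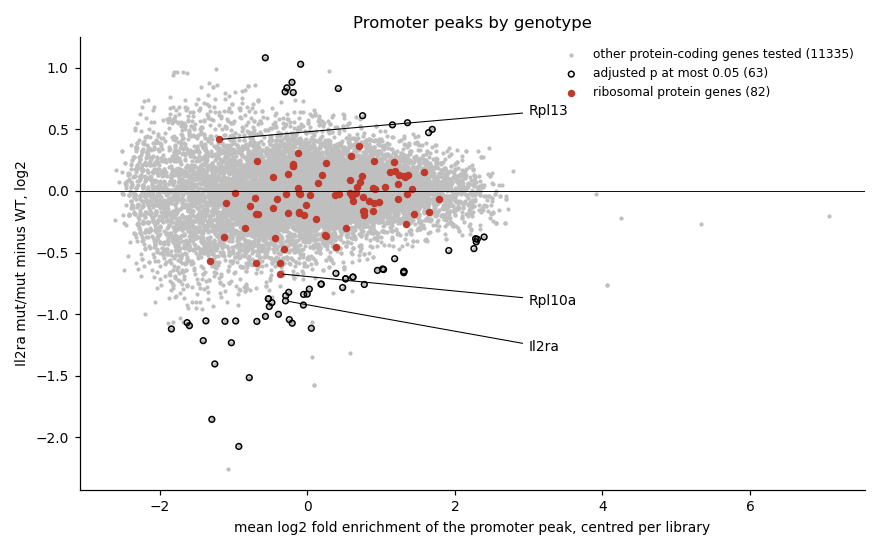
Difference between genotypes (Il2ra mut/mut minus WT, log2 fold enrichment, vertical axis) against the mean centred log2 fold enrichment (horizontal axis) for 11417 genes, with the 82 ribosomal protein genes in red and the 63 genes called by limma ringed in black. The members sit between -0.67 (Rpl10a) and 0.42 (Rpl13) and none is ringed, while Il2ra is called at -0.89.

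Il2ra itself gives a scale for these values, since its promoter was among the genes called. Its fold enrichment was 21.3 and 29.8 in WT against 13.5 and 13.6 in Il2ra mut/mut, with both mutant libraries below both WT libraries. The difference was -0.89 on the log2 scale (95% confidence interval -1.32 to -0.46, adjusted p = 0.0181 by limma). The call did not withstand leaving out any 1 library, quantile normalisation (adjusted p = 0.0641 by limma) or the absence of centring. The difference of Il2ra stayed between -0.85 and -0.90 in log2 fold enrichment over these alternatives and with 1 added to the fold enrichment. With the log2 of −log10 p in its place, which is another scale, the difference was -1.20.

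The member with the largest difference was Rpl10a (chr17:28328471-28331033, plus strand), a protein of the L1 stalk through which spent tRNA leaves the ribosome. The summit held 36 and 51 reads in WT against 33 and 25 reads in Il2ra mut/mut, and the fold enrichments were 18.7 and 26.3 against 15.3 and 12.6. Both mutant libraries lay below both WT libraries, by 0.67 on average on the centred log2 scale (interval -1.11 to -0.24, unadjusted p = 0.00267, adjusted p = 0.146 by limma).

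Rpl36 (chr17:56613416-56614243) had fold enrichments of 19.2 and 23.7 in WT against 13.5 and 15.1 in Il2ra mut/mut, with a difference of -0.58 (adjusted p = 0.248 by limma). Rpl38, whose loss in mice causes skeletal patterning defects, had 15.7 and 18.7 against 10.3 and 12.6, with a difference of -0.58 (adjusted p = 0.321 by limma). Rpl8, which lies close to the peptidyl transferase centre, had 18.2 and 25.3 against 14.8 and 16, and a difference of -0.47 (adjusted p = 0.403 by limma). In all 3 the genotypes did not overlap, and all 3 missed the threshold.

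Rpl4 differed by -0.57 (adjusted p = 0.443 by limma). Its highest value came from the single library with its peak after the TSS, so this difference compares different peaks, and it was -0.34 without that library.

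In the opposite direction the largest difference was that of Rpl13 (chr8:123102350-123105244, plus strand), with fold enrichments of 8.11 and 9.09 in WT against 13.5 and 9.72 in Il2ra mut/mut. Only 15 to 29 reads lay under its summits, and the difference of 0.42 had an interval from -0.11 to 0.95 (adjusted p = 0.62 by limma). Rps6, the 40S protein that S6 kinases phosphorylate downstream of mTOR, had 26.8 and 39.4 in WT against 44.9 and 38.9 in Il2ra mut/mut. Its difference was 0.36 (interval 0.04 to 0.69, unadjusted p = 0.0264, adjusted p = 0.383 by limma), with both mutant libraries above both WT libraries once the libraries were centred. Rpl7 (0.31), Rps20 (0.29) and Rpl5 (0.24) followed, with adjusted p-values of 0.648, 0.575 and 0.784 by limma. Rps20 differed by 0.04 without WT replicate 2 and by 0.55 without WT replicate 1, and Rpl5 by 0.05 without WT replicate 1 and 0.46 without WT replicate 2. Rpl13 differed by 0.17 without Il2ra mut/mut replicate 1 and by 0.67 without Il2ra mut/mut replicate 2.

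**Figure D5:**
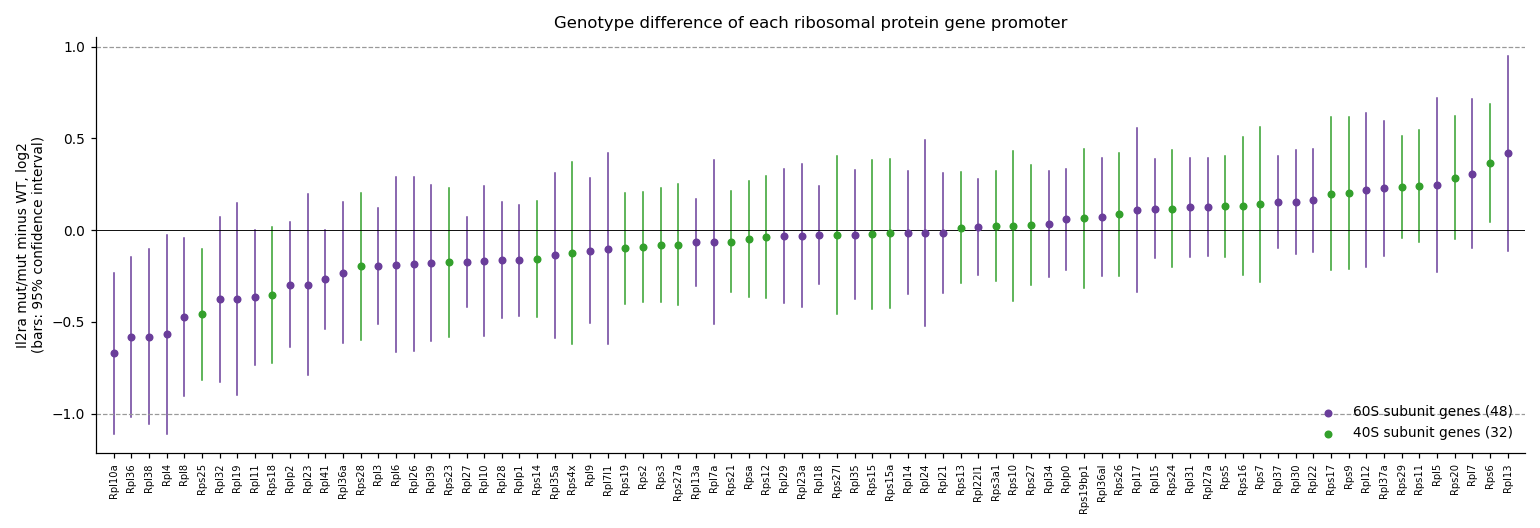
Difference between genotypes for each of 80 ribosomal protein genes (Il2ra mut/mut minus WT, log2, vertical axis) with its 95% confidence interval from limma, ordered by size, for 48 genes of the 60S (purple) and 32 of the 40S subunit (green); dashed lines mark a 2-fold change. The intervals of Rpl10a, Rpl36, Rpl38 and Rpl4 cross the lower line, and no interval crosses the upper one.

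The median difference was -0.07 for the 49 members of the 60S and -0.02 for the 33 of the 40S subunit. Without Il2ra mut/mut replicate 1 the medians were -0.15 and 0.04, and without Il2ra mut/mut replicate 2 they were -0.005 and 0.04. Without WT replicate 1 they were -0.10 and 0.002, and without WT replicate 2 they were -0.06 and 0.04. The largest differences belonged to the 60S, where 14 members were lower without overlap (28.6%, beside 21.2% of all genes) and 7 higher (14.3%, beside 18.8%), while in the 40S subunit 2 were lower (6.06%) and 7 higher (21.2%). The contrast between subunits was not tested. The stalk genes Rplp0, Rplp1 and Rplp2 differed by 0.06, -0.16 and -0.30, Rpsa by -0.05 and Rps27a by -0.08. Rpl11 differed by -0.36 and its partner Rpl5 by 0.24. The paralogs Rpl22l1, Rpl36al, Rps27l and Rpl7l1 differed by 0.02, 0.07, -0.03 and -0.10, and Rps19bp1 by 0.07. The 4 X-linked genes all had lower mean values in the mutant, from -0.23 for Rpl36a to -0.13 for Rps4x, and none was called. Without Il2ra mut/mut replicate 2, 2 of the 4 remained lower.

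Single libraries of different genotypes were set beside replicates of 1 genotype. The median absolute difference of a member (centred log2) was 0.13 between the WT replicates and 0.19 between the Il2ra mut/mut replicates, and 0.16, 0.18, 0.20 and 0.20 in the 4 pairs of a WT and a mutant library. Over all genes tested it was 0.187 and 0.185 between replicates, and 0.20 to 0.21 between genotypes. The SD over members of the difference between genotype means was 0.22, and counting error computed from the reads at the summits alone would give 0.21. For the WT replicates the SD was 0.27 and the counting value 0.30, and for the Il2ra mut/mut replicates 0.28 and 0.29. Over all genes tested, the SD between genotypes and its counting value were both 0.26, a match that did not hold at each level. In the groups by mean level, lowest to highest, the SD over genes was 0.333, 0.276, 0.232 and 0.176. The counting values were 0.382, 0.25, 0.191 and 0.138, above the SD in the lowest group and below it in the others. For members the SD was 0.343, 0.26, 0.215 and 0.142, beside counting values of 0.321, 0.245, 0.185 and 0.145.

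In all 6 pairs of libraries, all 82 members lay within 2-fold of each other, against 98.8% to 99.5% of genes. These shares, too, are not matched for level. Spearman's rho between libraries across the 82 members was between 0.93 and 0.95, lower than over all genes tested in every pair (0.95 to 0.96), a description across genes that share their libraries. The gap between replicates was widest for Rps4x, with 29 and 24 reads in WT against 20 and 34 in Il2ra mut/mut (centred log2 gaps of 0.74 and 0.83), and then for Rpl29 (0.77 in WT), Rpl7a (0.71 in Il2ra mut/mut), Rpl35a (0.64 in Il2ra mut/mut) and Rpl19 (0.61 in WT). Each of these gaps exceeded the difference between genotypes of the same gene.

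The other genes of the translation machinery were as regularly open. All 33 translation factors, all 20 ribosome biogenesis genes and all 16 genes of translation control had a promoter peak in every library, as had 77 of 78 mitochondrial ribosomal protein genes. Of the 33, 20, 16 and 77 genes of these lists that were tested, 1 was called, beside 0.552% of all genes tested. This count does not set the lists apart from the other genes. The gene was Eif3b, a subunit of the initiation factor eIF3, with fold enrichments of 29.4 and 25.8 in WT against 12.6 and 14.1 in Il2ra mut/mut. Its difference was -1.04 on the log2 scale (interval -1.47 to -0.62, adjusted p = 0.00278 by limma), and the call was lost without WT replicate 1 (adjusted p = 0.398) and without centring (adjusted p = 1). Over the alternatives that tested it, its difference stayed between -0.71 and -1.36 in log2 fold enrichment. With the log2 of −log10 p in its place, the difference was -1.40. The median differences of the lists were -0.05 for translation factors, -0.09 for ribosome biogenesis, -0.02 for translation control and 0.02 for mitochondrial ribosomal proteins, and their median absolute differences lay between 0.12 and 0.19, beside 0.14 for the members.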

How the data were processed

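ATAC-seq peak lists of 4 libraries of LN Treg cells (WT and Il2ra mut/mut, 2 each) were analysed. The authors trimmed the reads with Trim Galore (0.3.7), aligned them to mm10 with BWA mem (0.7.13), removed duplicated and mitochondrial reads with SAMtools (0.1.19) and Picard (1.92), and called narrow peaks with MACS2 (2.1.0) on shifted reads of each library. The deposited lists give the fold enrichment at the summit (a ratio over background), −log10 of the p and q of each peak, and a score derived from the q (10-fold its −log10). The lists give no totals of reads, so depth is unknown beyond the reads at each summit, and how reads with several placements were treated is not given in the sources used here.

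Promoter peaks, ranks, IDR classes, distances and motifs were computed with scipy (1.17.1), pandas (2.3.3) and numpy (2.4.6) under Python (3.11.15). Genes came from GENCODE (basic set, GRCm38, whose coordinates are those of mm10). The IDR step fits a copula mixture to the ranks of peaks by −log10 p. Genotypes were compared in R (4.3.3) with limma (3.58.1) and Benjamini-Hochberg adjustment over all genes tested. The fit used lmFit and eBayes with trend and robust options, and no pseudocount beyond the 1 that the fold enrichment already holds. Both procedures were tested on simulated data. Figures were drawn with matplotlib (3.10.9).

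The members, the gene lists and the motifs were chosen with earlier results of these data known. The genes named are the members lacking a peak in a library, the 10 highest and 10 lowest by mean percentile, the 5 largest differences in each direction, the 5 largest gaps between replicates, and the lists of stalk, 5S, paralog and X-linked members. Of other lists, genes with the largest differences were eligible. Rps14, the genes whose sequences are shown and those with a divergent neighbour were named after their values were seen. Lists of other cell types and of Treg cells served as a check of the sort. Of these genes, 2 members and 1 marker are not reported here by name and are not drawn by name, though they stay in the counts. Library centring uses the median of the genes tested. Alternatives are given in the closing section.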

Additional observations from a re-analysis of the deposited data

How the results depend on the processing

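Counts of members with a peak, with a common OCR or called were stable under the alternatives run, while counts of calls over all genes were not. The number of members with an interval within a 2-fold change moved. It was 78 in the main fit, 69 without centring and 80 with 1 added to the fold enrichment. Members with a promoter peak in every library numbered 82 with the summit required within 1 kb, with a window of 200 bp, with a −log10 q of at least 3 and without any 1 library, and 80 when only the most 5′ TSS was used. All 82 members kept a common OCR at an IDR of 0.01, without the IDR step and with ranking by fold enrichment, which orders the peaks exactly as −log10 p does. No member was called under any of the 12 alternatives to the limma test. The median difference of the members lay between -0.07 and 0.03.

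Calls over all genes, 12 higher and 51 lower, became 0 and 2 without centring, 3 and 13 with quantile normalisation, and 6 and 24 among the genes above the median level. They numbered 30 lower when the 4 chosen peaks had to share 1 bp. Leaving out each library gave between 6 and 19 genes higher and between 13 and 59 lower, with 7 and 13 without WT replicate 1. The same replicate number did not mark a pair (r = 0.0046 across genes between the deviations of same-numbered libraries), and a replicate block gave 13 genes higher, 59 lower and 0 members. Differences of the 10 members named for size kept their sign wherever they were tested. Their size moved most for Rps20 (0.04 to 0.55), Rpl13 (0.17 to 0.67), Rpl4 (-0.34 to -0.78) and Rpl5 (0.05 to 0.46). These ends are in log2 fold enrichment, each reached by leaving out 1 library. The lowest adjusted p of the named members over the alternatives was that of Rpl10a (0.137 by limma, with 1 added to the fold enrichment). Without 1 library or with another scaling, 6 calls of Il2ra and 2 of Eif3b over the alternatives were lost, and none changed sign.

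Ranked among promoter peaks only, the median member stood at a percentile of 68.2 in place of 96.2. In the 250 bases before the start alone, the motif shares of members fell to 34.6% for ETS, 6.41% for YY1 and 48.7% for SP1/KLF, beside 22.9%, 4.26% and 58.9% in the genes with a peak, and those of NRF1 and TATA to 6.41% and 5.13%, beside 5.96% and 5.90%. With the start of the TOP allowed within 5 bases, an alternative chosen after seeing the data, its share was 41.0%.

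The depth limits these results at 14 to 33 summit reads for Rpl4, Rpl13 and Rpl19, the lowest members with a peak in every library, and 2 libraries per genotype do not allow a test over libraries alone to reach 0.05.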

Other observations

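Copies of ribosomal protein genes that the selection left out mostly had no called peak. Of 6 protein-coding symbols marked -ps, 1 (Rpl9-ps6) had a promoter peak, with fold enrichments of 13.2 and 27.8 in WT against 17.9 and 21.4 in Il2ra mut/mut and ranks up to a percentile of 94.7. Of 294 annotated pseudogenes with such symbols, 5 (1.70%) had a peak within 1 kb of their start in every library and 25 (8.50%) in at least 1. Leaving out those with a protein-coding TSS within 2 kb left 290, of which 4 (1.38%) had a peak in every library.

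Among the markers of other cell types, Pecam1 had fold enrichments of 18.2 and 33.9 in WT against 13.5 and 18.5 in Il2ra mut/mut, a difference of -0.65 on the log2 scale (adjusted p = 0.138 by limma). Cd8b1 had 8.61 and 10.6 against 5.38 and 5.83, with both mutant libraries lower (difference -0.77, adjusted p = 0.236 by limma). Col1a1 differed by 0.02. Epcam had a weak peak in 3 of the libraries, at fold enrichments between 5.05 and 5.35.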
